A study of Mus musculus with 2 samples.

Results

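The core of the Hippo pathway was examined in the mouse second polar body (PB2) and in the zygote. Members were taken by symbol from a list of 10 genes, and 8 of the 10 had a row in the deposited table of 11262 genes. Tead4 and Lats2 were not analysed here. The members with values were Yap1, Tead1, Tead2, Lats1, Stk3, Stk4, Sav1 and Nf2. Both samples were polyA RNA from untreated C57BL/6 embryos cultured in KSOM and collected at the late 1-cell stage, after the zona pellucida had been dissolved in acid Tyrode's solution and PB2 split off in trypsin by pipetting. Each sample pooled material from many embryos into 1 library, so there was 1 library of PB2 and 1 of zygotes. The RNA was amplified as full-length cDNA before sequencing. No replicate exists in these data, no test was run, and every difference describes these libraries alone.

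The Hippo pathway restrains growth and sets cell fate through a chain of kinases. The Mst kinases Stk3 and Stk4, held by the scaffold Sav1 and helped by the membrane adaptor Nf2, activate the Lats kinases, which phosphorylate the coactivator Yap1 and keep it out of the nucleus. Unphosphorylated Yap1 binds Tead proteins on DNA. In the mouse embryo before implantation, Yap1 with Tead4 drives trophectoderm genes in the outer cells, whereas Hippo signalling in the inner cells keeps Yap1 cytoplasmic. The oocyte supplies Yap1 mRNA and protein to the embryo.

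Values are TPM, a measure of relative mRNA abundance that the authors adjusted for gene length and library total and deposited to 1 decimal. TPM gives proportions, so a gene with more molecules in a sample and a gene in a sample with less of other RNA cannot be told apart, and TPM keeps no record of read depth. The table summed to 898326 TPM in PB2 against 927063 in the zygote. The log2 ratio used throughout is log2((PB2 TPM + 1)/(zygote TPM + 1)), and it was taken over the 10645 genes with at least 1 TPM in either library. Their median log2 ratio was 0.21, slightly towards PB2. All 15 oocyte marker genes looked up were above 1 TPM in both libraries, from 62.7 to 22562 TPM. Of 14 cumulus and granulosa cell markers, 5 were in the table and summed to 81.1 TPM in PB2 against 81.0 in the zygote, mostly from Cyp19a1. Among these, Cyp11a1 was listed at 0 in the zygote and at 0.8 TPM in PB2. Of 6 sperm markers, 2 were in the table and summed to 22.6 and 20.8 TPM.

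The 3′ ends of the member transcripts are shown first, because stored egg mRNAs are controlled through elements there. The cytoplasmic polyadenylation element (CPE) recruits Cpeb proteins and governs when a dormant maternal mRNA receives a long poly(A) tail. The poly(A) signal (PAS) is the hexamer that directs cleavage of the nascent transcript a short way downstream. For every gene the longest coding transcript of GENCODE M21 was searched in its last 150 nucleotides, on the sense strand, for the CPE-type motifs TTTTAT and TTTTAAT and for the PAS forms AATAAA and ATTAAA. Windows of 30 bases from the last exon, all in the 3′ UTR, are given 5′ to 3′ on GRCm38, with CPE-type and PAS motifs in capitals. For Stk3, Stk4 and Lats1 the motifs lie too far apart for a shared window and only the CPE-type motif is shown.
Yap1, chr9:7932002-7932031, minus strand: ttttacAATAAAccaatTTTTATaatctta
Nf2, chr11:4765855-4765884, minus strand: taagtgattgTTTTAATAAAaactctaagc
Sav1, chr12:69965024-69965053, minus strand: ttgaTTTTATataacaagttATTAAAtata
Stk3, chr15:34875542-34875571, minus strand: gtgtgtgtgttcTTTTATgtgttaattact
Stk4, chr2:164155434-164155463, plus strand: cttcctgtgtgcTTTTATgttagagttgtc
Lats1, chr10:7716359-7716388, plus strand: aatcagtctgtTTTTAATgaatctatttgt

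A PAS hexamer was present in all 8 member transcripts, against 82.4% of the 10606 genes compared that have a transcript. A CPE-type motif was present in 6 of the 8, against 25.2% of those genes. Tead1 and Tead2 held no match in this window. In Yap1 the PAS began 27 nucleotides from the annotated end and the CPE-type motif 16 nucleotides from it, so the motif lay downstream of the hexamer. In Nf2 the CPE-type motif overlapped the PAS, their first bases 4 nucleotides apart, and in Sav1 they were 16 apart. The distance was 38 nucleotides in Stk3, 56 in Stk4 and 60 in Lats1. The 3 members with the highest log2 ratios, Yap1, Nf2 and Sav1, had the shortest distances, counted without regard to which motif lay upstream. This was noticed after the values were seen, and the Sav1 ratio is uncertain for a reason given below. Over all genes compared, those with a CPE-type motif had a median log2 ratio of 0.24 and those without one 0.20. A match is a string of letters in one annotated transcript, and which 3′ end these cells used was not tested.

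**Figure D1:**
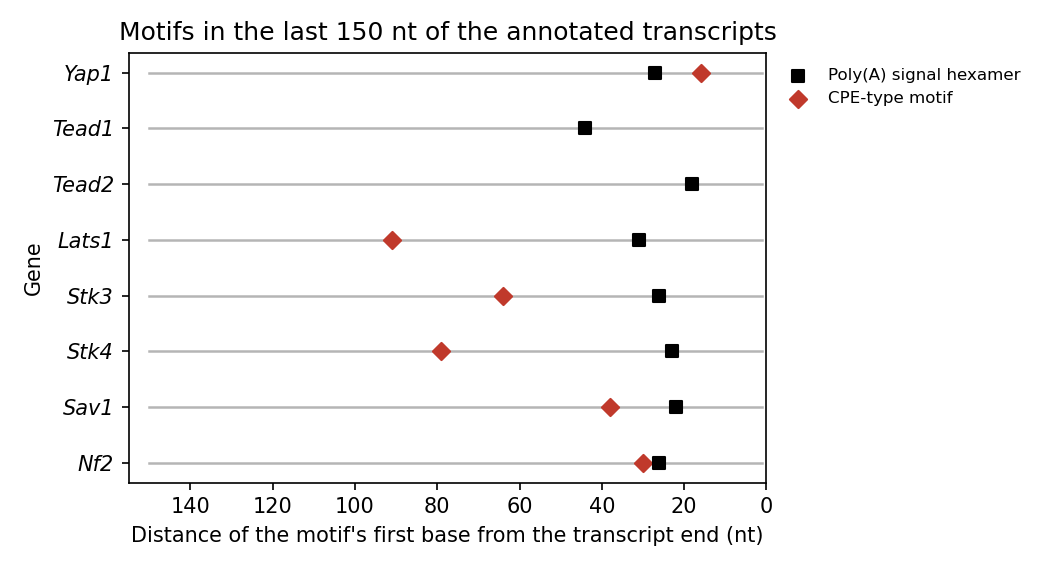
Positions of the poly(A) signal hexamer (black squares) and of the CPE-type motif (red diamonds) in the last 150 nucleotides of the longest coding transcript of each member. The x axis is the distance in nucleotides of the motif's first base from the transcript end; the motifs lie closest together in Nf2, Yap1 and Sav1, and Tead1 and Tead2 have no CPE-type motif.

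Yap1 was the most abundant member in PB2, with 144.3 TPM, and had 45.4 TPM in the zygote. The ratio of PB2 to the zygote was 3.18, and rounding of the deposited values allows 3.17 to 3.18. Its log2 ratio was 1.65, and 5.60% of the genes compared had a larger one. Only 8.99% of the table stood above Yap1 in PB2, against 21.5% in the zygote. The Yap1 gene (ENSMUSG00000053110) occupies 7931999 to 8004596 of chromosome 9 (GRCm38, minus strand), and its longest coding transcript has 9 exons and 4171 nucleotides. Wwtr1, which encodes the Yap1 paralog Taz, had 3.1 TPM in both libraries. Yap1 therefore held 97.9% of the combined Yap1 and Wwtr1 TPM in PB2 and 93.6% in the zygote.

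Members of the Tead family, the DNA-binding partners of Yap1, were near the bottom of the table. Tead2 had 1.6 TPM in PB2 against 1.1 in the zygote, a log2 ratio of 0.31. Tead1 had 0.2 TPM in PB2 against 0.6 in the zygote, and it was left out of the comparison as under 1 TPM in both libraries. Higher TPM than that of Tead2 was found for 84.9% of the genes of the table in PB2 and for 85.9% in the zygote. Tead3, searched for beside the members, was not analysed here. Yap1 was 90.2 times as abundant as Tead2 in PB2 and 41.3 times in the zygote, so the coactivator far exceeded the Tead transcripts that had values. At these low levels the number of reads, which is unknown, limits how far the Tead values can be compared between libraries.

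Lats1 encodes one of the Lats kinases that phosphorylate Yap1, and it was the one member at least 2-fold higher in the zygote. It had 3.2 TPM in the zygote against 1.0 in PB2. The zygote to PB2 ratio was 3.2, with 3 to 3.42 allowed by rounding, and the log2 ratio was -1.07, below that of 93.1% of the genes compared. Lats1 (ENSMUSG00000040021) spans 7681214 to 7716460 on the plus strand of chromosome 10, and its transcript is 7209 nucleotides long in 8 exons. Yap1 and Lats1 differed in opposite directions. Within a library, Yap1 was 144.3 times as abundant as Lats1 in PB2, where rounding allows 137 to 152. In the zygote it was 14.2 times as abundant, where rounding allows 13.9 to 14.4. With Lats1 at only 1.0 TPM in PB2, the number of reads, which is unknown, limits these ratios beyond rounding. Lats2 was not analysed here.

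The upstream kinases showed little difference. Stk3, which encodes Mst2, had 98.6 TPM in PB2 against 97.1 in the zygote, a log2 ratio of 0.022. Stk4, which encodes Mst1, had 8.6 and 9.3 TPM, a log2 ratio of -0.10. Stk3 was the main Mst transcript in both libraries, with 92.0% of the combined Stk3 and Stk4 TPM in PB2 and 91.3% in the zygote. It was 98.6 times as abundant as Lats1 in PB2 and 30.3 times in the zygote, with Lats2 not analysed here. The values of Stk3 stood among the top 12.8% of the table in PB2 and the top 11.6% in the zygote, counted as the share of genes above it.

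Nf2 and Sav1, the partners that bring the kinases together, were both higher in PB2. Nf2, which encodes Merlin and links the cascade to the membrane, had 14.9 TPM in PB2 against 6.2 in the zygote. The ratio was 2.4, with 2.38 to 2.43 allowed by rounding, and the log2 ratio 1.14. Sav1, the scaffold of the Mst kinases, had 9 TPM in PB2 against 4.3 in the zygote, a ratio of 2.09 with 2.06 to 2.13 allowed. Its log2 ratio of 0.92 was just under the 2-fold threshold because of the pseudocount, whereas Nf2 lay just above it. The Sav1 value is uncertain for a further reason. Exons of Atl1 on the opposite strand cover 52.9% of the Sav1 transcript, Atl1 had 138.6 TPM in PB2 against 136.1 in the zygote, and whether reads were counted by strand is not given in the sources used here. For Yap1 the stretch shared with exons of another gene was 2.78% of the transcript, and for the other 6 members none was.

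**Figure D2:**
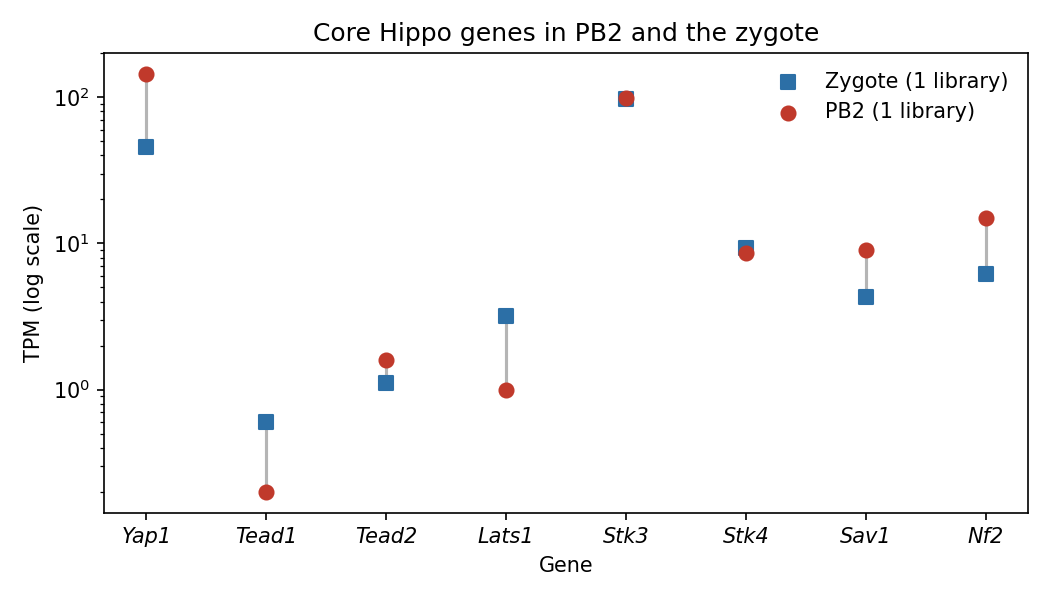
TPM of the 8 members with values (y axis, log scale) in the PB2 library (red circles) and the zygote library (blue squares), 1 library each, joined by a line per gene. Yap1, Nf2 and Sav1 were higher in PB2, Lats1 and Tead1 in the zygote, and the Stk3 points nearly coincide at 98.6 and 97.1 TPM.

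Yap1 and Nf2, 2 of the 7 members compared, exceeded 2-fold towards PB2, against 18.9% of all genes compared. In the other direction 1 member, Lats1, was at least 2-fold higher in the zygote, against 8.09% of all genes compared. The remaining 4, Tead2, Stk3, Stk4 and Sav1, were within 2-fold. All 7 had at least 1 TPM in both libraries, so none entered through its higher library alone. The median log2 ratio of the 7 was 0.31, that of Tead2, beside 0.21 over all genes. With so few genes, 1 gene more or less moves these shares by more than their distance from the background. With the log2 ratios centred on the median of all genes, a choice made after seeing the data, Nf2 at 0.93 fell short of 2-fold and Yap1 at 1.44 and Lats1 at -1.28 did not.

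**Figure D3:**
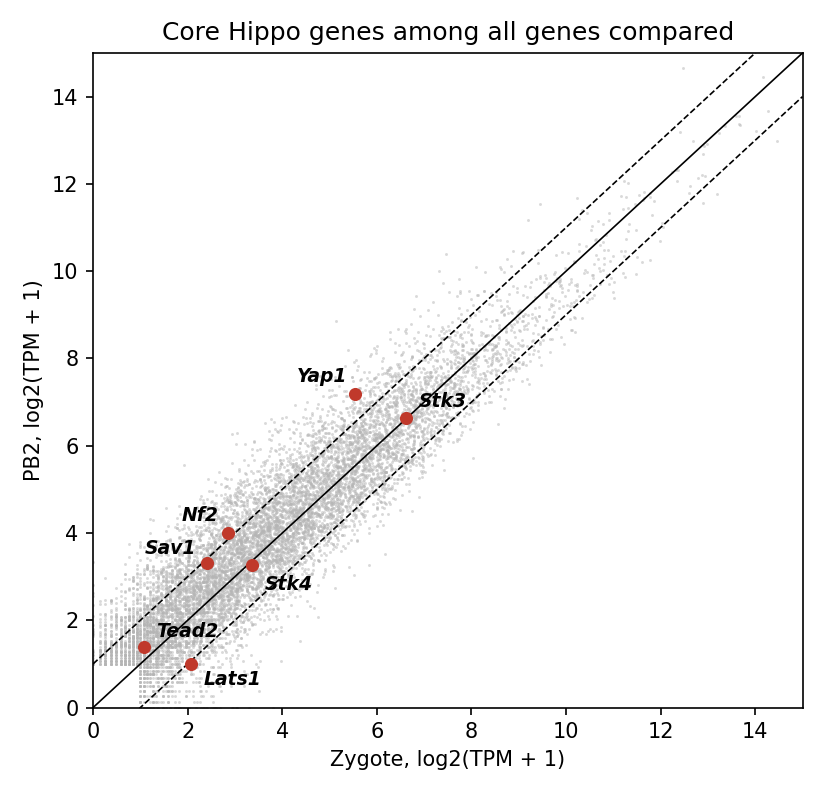
PB2 (y axis) against the zygote (x axis), both as log2(TPM + 1), for the 10645 genes compared (grey) and the 7 members compared (red). The solid line marks equal values and the dashed lines 2-fold differences; Yap1 and Nf2 lie above the upper dashed line, Lats1 below the lower one and Stk3 on the line of equality.

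The order of the members differed between the libraries. In the zygote Stk3 came first with 58.1% of the members' summed 167.2 TPM, and Yap1 followed with 27.2%. In PB2 Yap1 came first with 51.9% of 278.2 TPM and Stk3 followed with 35.4%. Yap1 was 1.46 times as abundant as Stk3 in PB2 and 0.468 times in the zygote. Below them Nf2, Sav1 and Stk4 lay between 8.6 and 14.9 TPM in PB2 and between 4.3 and 9.3 TPM in the zygote. Stk4 had rank 3 in the zygote and rank 5 in PB2. Lats1, Tead2 and Tead1 had the lowest values in both libraries, with Lats1 above Tead2 in the zygote and below it in PB2. In the absence of replicates it is not known which neighbours in this order would exchange places in another sample.

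The log2 ratio followed transcript GC content across the table, with Spearman's rho of 0.44 over 10606 genes of the same pair of libraries, so each member is given beside genes of like GC content. Yap1 has 50.3% GC, and the 1197 genes within 1 percentage point of it had a median log2 ratio of 0.35, against 1.65 for Yap1. Only 3.43% of them had a larger ratio. Nf2 has 53.5% GC, and the 1080 genes near it had a median of 0.52 with 28.7% of them at least 2-fold higher in PB2. Its log2 ratio was 1.14, and 22.7% of the genes near it in GC had a larger one. Sav1 has 45.9% GC, and the 1150 genes near it had a median of -0.019, against 0.92 for Sav1. Lats1 has 43.0% GC, near which the median was -0.14 and 14.1% of 1000 genes exceeded 2-fold towards the zygote. Tead2, the member richest in GC at 57.9%, was below the median of 0.89 of the genes near it. With the GC trend subtracted from each gene, the log2 ratio was 1.34 for Yap1, 0.93 for Sav1, 0.60 for Nf2 and -0.90 for Lats1. Only Yap1 of the members compared was then past 2-fold, beside 9.08% of all genes towards PB2 and 11.0% towards the zygote. The part of GC content in the differences between the libraries was not tested.

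**Figure D4:**
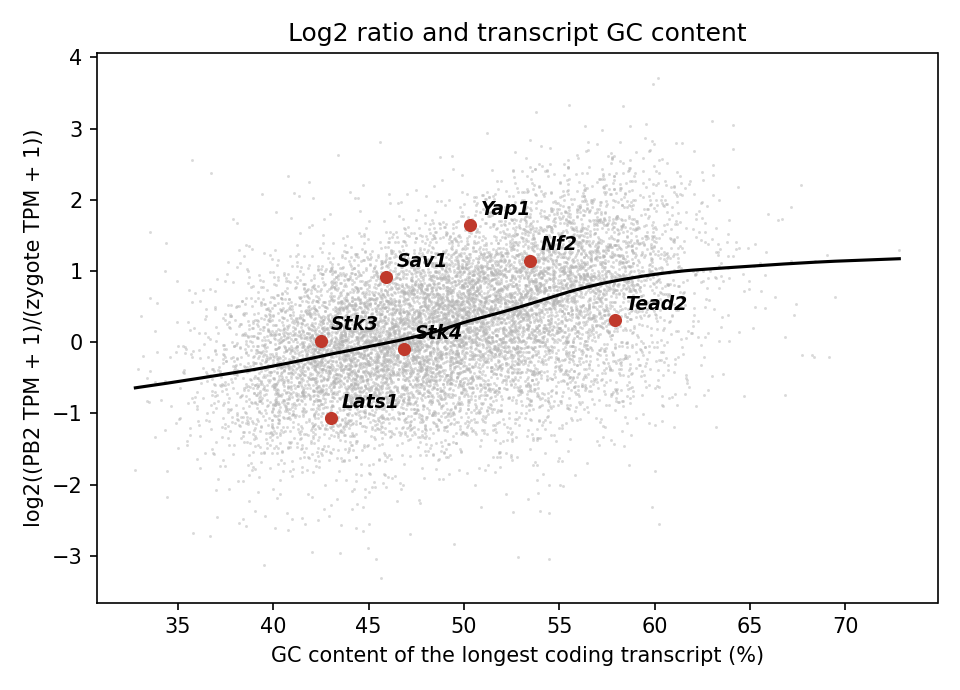
Log2 ratio of PB2 to the zygote (y axis) against the GC content in percent of the longest coding transcript (x axis) for 10606 genes (grey), with the loess trend (black line) and the 7 members compared (red). Yap1, Sav1 and Nf2 lie above the trend, Lats1 and Tead2 below it.

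The wider pathway was read from 5 lists, in which 62 of 83 genes other than the members were in the table and were compared. Towards PB2, 12 of the 62 (19.4%) exceeded 2-fold, and towards the zygote 3 did (4.84%), beside 18.9% and 8.09% of all genes. Their median log2 ratio was 0.37. Map4k2, counted towards PB2, and Map4k3, counted towards the zygote, were under 1 TPM in the lower library and entered through the higher one alone.

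The other kinases and adaptors of the core had 18 genes compared. Past 2-fold were 4 towards PB2 (22.2%) and 1 towards the zygote (5.56%), beside 18.9% and 8.09% of all genes. The median log2 ratio of the list was 0.46. The pair of Kibra genes, whose products act with Nf2 upstream of the kinases, were among the 4. Wwc2 was the most abundant gene of the list, with 168.4 TPM in PB2 against 70.2 in the zygote, and Wwc1 had 10.9 and 2.7 TPM. Taok2, a kinase that can activate Mst kinases, had 11.4 TPM in PB2 against 4 in the zygote. The fourth, Map4k2, had 2.1 and 0.5 TPM, and Map4k3, the gene higher in the zygote, had 0.7 TPM in PB2 against 2.4 in the zygote. These Map4k genes were below the level set for naming genes and were picked out after their values were seen. Each was under 1 TPM in its lower library and entered the comparison through the higher one alone. The Lats coactivators Mob1a and Mob1b were within 2-fold, with 9.1 and 11.2 TPM in PB2 against 6.3 and 5.8 TPM in the zygote. With the GC trend removed, the log2 ratios of Wwc2, Wwc1 and Taok2 were 0.97, 0.87 and 0.50, under 2-fold, as were those of Map4k2 at 0.37 and Map4k3 at -0.93. That of Mob1b was then 1.27, past 2-fold.

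STRIPAK is a phosphatase assembly that dephosphorylates the Mst kinases and so opposes Hippo signalling. Among its 14 genes compared, 4 exceeded 2-fold towards PB2 (28.6%) and 0 towards the zygote, beside 18.9% and 8.09% of all genes. The median log2 ratio of 0.64 was the highest of the lists. Slmap, the subunit that binds phosphorylated Mst kinases, had 21 TPM in PB2 against 4.2 in the zygote, a ratio of 5. Ppp2r1a, the scaffold of protein phosphatase 2A, had 152.1 TPM in PB2 against 38.4 in the zygote. Strn4 had 16.5 and 5.6 TPM, and the kinase Stk25 had 60.5 and 25.0 TPM. Not all subunits followed. The most abundant, Mob4, had 204.4 TPM in PB2 against 394.8 in the zygote, a log2 ratio of -0.95, and Strn had 199.8 and 266.9 TPM. With the GC trend removed, Slmap stood at 2.09 and Ppp2r1a at 1.31, still past 2-fold, whereas Strn4 at 0.51 and Stk25 at 0.94 were not.

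Junction and Rassf proteins, which tie the pathway to cell contacts, had 10 genes compared, 1 of them past 2-fold towards PB2, 0 towards the zygote and a median of 0.31. That gene was Rassf5, an Mst kinase partner, with 85.2 TPM in PB2 against 40.1 in the zygote, and its log2 ratio was 0.62 with the GC trend removed. Ctnna1, the most abundant gene of this list in the zygote, which encodes α-catenin, had 80.4 and 121.1 TPM. Amot, which sequesters Yap1 in inner cells of the later embryo, had 2 TPM in PB2 against 0.8 in the zygote and was within 2-fold on the log2 ratio.

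Among the 14-3-3 proteins, which hold phosphorylated Yap1 in the cytoplasm, the turnover enzymes of Yap1 and Lats and the Vgll proteins, which compete with Yap1 for Tead, 17 genes were compared. Past 2-fold were 3 towards PB2 (17.6%) and 2 towards the zygote (11.8%), beside 18.9% and 8.09% of all genes, and the median was 0.097. Ywhab had 521.2 TPM in PB2 against 217.7 in the zygote, while Ywhae, the most abundant of the list in the zygote, had 504.1 and 687.1 TPM. Vgll4 had 26.4 TPM in PB2 against 11.5 in the zygote. With the GC trend removed, Ywhab stayed past 2-fold and the log2 ratio of Vgll4 was 0.56. Csnk1d, a casein kinase that marks Yap1 for degradation, had 7.6 and 1.9 TPM and was picked out after its value was seen. Past 2-fold towards the zygote were the deubiquitinase Usp9x, with 29.0 TPM in PB2 against 70.0 in the zygote, and Itch, a ubiquitin ligase of Lats1, with 2 and 7 TPM, also picked out after its value was seen. With the GC trend removed Itch stayed past 2-fold, whereas Usp9x at -0.91 and Csnk1d at 0.97 did not. The 14-3-3 gene Sfn, with 5.8 TPM in PB2 against 9.3 in the zygote, was then past 2-fold towards the zygote at -1.54. Sfn was also picked out after its value was seen.

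Of 16 genes known as targets of Yap1 and Tead proteins in other cells, 3 were in the table and none was 2-fold apart as deposited. Over all genes, 18.9% were past 2-fold towards PB2 and 8.09% towards the zygote. Tgfb2 had 678.9 TPM in PB2 against 757.4 in the zygote, and Gata3 had 58.5 and 51.8 TPM. Birc5 had 409.8 and 789.5 TPM, a log2 ratio of -0.94. With the GC trend removed, Birc5 at -1.02 was past 2-fold towards the zygote, whereas Tgfb2 at -0.20 and Gata3 at -0.078 were not. The other targets, among them Ccn1, Ccn2 and Ankrd1, were not analysed here, so the list cannot describe target expression.

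**Figure D5:**
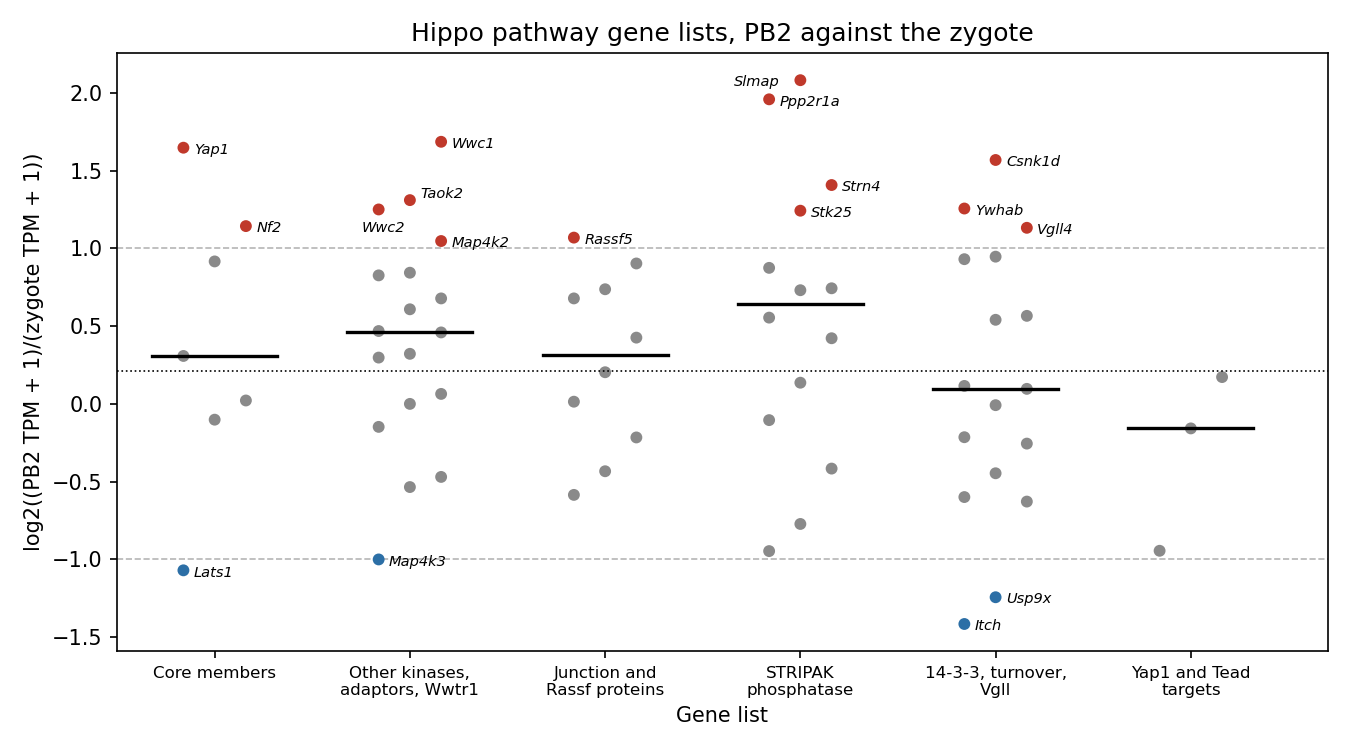
Log2 ratio of PB2 to the zygote (y axis) for every gene compared in the 7 core members and the 5 wider lists (x axis, spread sideways for legibility). Red points are at least 2-fold higher in PB2, blue points at least 2-fold higher in the zygote, black bars are list medians, the dotted line is the median of all genes at 0.21; the STRIPAK list has the highest median, 0.64, with Slmap and Ppp2r1a at its top.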

How the data were processed

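The authors deposited TPM values for PB2 and the zygote, 1 library each, rounded to 1 decimal. According to the supplementary methods and the submitters' processing notes, reads were called with CASAVA, aligned with HISAT2 2.0.4, counted with HTSeq 0.6.1p1 and normalized with DESeq2 1.18.1. How TPM was derived is not given in the sources used here. The methods name the rabbit assembly OryCun2.0, the notes list both OryCun2.0 and GRCm38, and the identifiers are mouse Ensembl. The depth is unknown, so no counting interval is given.

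From these values the log2 ratio was computed with a pseudocount of 1 TPM, for genes with at least 1 TPM in either library, and 2-fold differences were counted without a test. Sequence, length and GC content were read by identifier from each gene's longest coding transcript in GENCODE M21 (GRCm38). A loess trend on GC content had a span of 0.3, and the functions were tested on simulated data. The genes named are the members and the most abundant gene of each wider list. Genes of each wider list at least 2-fold apart and reaching 10 TPM in one library (at most 5) are named too. So are the 3 genes of the table nearest to Yap1 and to the most abundant member. Of the wider list genes compared, Wwtr1, Mob1a, Mob1b, Map4k2, Map4k3, Strn, Amot, Csnk1d, Itch, Sfn, Gata3 and Birc5 were named outside this rule. The members and lists were chosen with earlier results of these data known, and 1 gene of the wider lists is not reported here and is left out of their counts. Alternatives were a pseudocount of 0.1, no filter, a filter at 5 TPM, a 1.5-fold threshold, a rescaling of the zygote that brings the median ratio to 1 (genes of 10 TPM or more in each library), and removal of the GC trend. Centring on the median was chosen after seeing the data. A log2 ratio of a gene was taken as moved at 0.5, a median at 0.25 and a count beyond 1.5 times. Computation was in Python 3.11.15 with statsmodels 0.14.6 for loess, scipy 1.17.1 for the rank correlation, and numpy 2.4.6, pandas 2.3.3 and matplotlib 3.10.9.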

Additional observations from a re-analysis of the deposited data

How the results depend on the processing

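No paired analysis was possible because PB2 and the zygote have 1 library each. Under the alternatives 210 recomputed results kept within the stated limits and 22 moved, and none that was 2-fold apart changed direction. Yap1 stayed past 2-fold under each alternative tried. With a pseudocount of 0.1 the log2 ratio of Lats1 was -1.58 and that of Sav1 1.05, so that 3 members were past 2-fold towards PB2. Of the wider list genes 16 then passed towards PB2 and 3 towards the zygote. Over all genes compared the shares were 24.6% and 10.3%. A filter at 5 TPM removed Lats1 and Tead2, which left 0 members higher in the zygote and a median of 0.92. Over all genes kept by this filter, 8.39% were higher in the zygote and the median was 0.20. Removal of the GC trend moved Nf2 to 0.60 and Tead2 to -0.55, and left 1 member past 2-fold towards PB2 and 0 towards the zygote. It gave 4 wider list genes higher in PB2 and 3 higher in the zygote, with a median of 0.12. Beside these stood 9.08% of all genes towards PB2 and 11.0% towards the zygote, with a median of 0.0099. Centring, which shifts each log2 ratio by 0.21, left 1 member higher in PB2, beside 13.0% of all genes. It gave 5 wider list genes higher in the zygote, as did scaling of the zygote values, both by adding Mob4 and Birc5. Towards the zygote, 12.1% of all genes passed with centring and 9.22% with scaling. At 1.5-fold 24 wider list genes passed towards PB2 and 8 towards the zygote, which follows from the threshold. Of all genes compared, 34.2% and 18.1% passed at 1.5-fold. Over all genes, PB2 held 70.0% of the genes past 2-fold, 64.5% with scaling, 51.7% with centring and 45.3% with the GC trend removed. Unknown depth limits Lats1, Tead1 and Tead2 most.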

Other observations

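Genes with values most like those of Yap1 in both libraries, by Euclidean distance of log2(TPM + 1) over the 2 libraries, were Laptm4a with 145.0 TPM in PB2 against 45.3 in the zygote (distance 0.0076), Eefsec with 148.4 and 45 TPM (0.042) and Lhx8 with 147.7 and 42.0 TPM (0.11). Laptm4a encodes a lysosomal membrane protein, Eefsec the elongation factor for selenocysteine and Lhx8 an oocyte transcription factor. Nearest to Stk3 were Hsd17b13 with 99.5 and 96.6 TPM, Spast with 95.4 and 95.6 TPM and Tma7 with 101.2 and 99.8 TPM. With 2 libraries such likeness rests on a pair of values per gene.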
